A study of Homo sapiens and Mus musculus with 20 samples.

Results

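In mouse embryonic fibroblasts (MEF), 6068 of 171188 regions enriched for H3K27me3 on chromosomes 1 to 19 of wild-type (WT) cells overlapped a region enriched for H3K27ac in the same cells by at least 1 bp. These doubly marked regions made up 3.54% of the WT H3K27me3 list (95% exact Clopper-Pearson interval 3.46 to 3.63), and they overlapped 6609 of 166110 WT H3K27ac regions (3.98%). They were chosen by the measured WT regions of both marks, after entries with equal coordinates had been merged, so the overlap of the WT lists is the definition of the set and not a result. The series holds 20 chromatin immunoprecipitation libraries, and the 4 used here are H3K27me3 and H3K27ac in MEF labelled Kdm6a knock out (KO) and in MEF labelled Kdm6a wild type. Per the file headers, the KO libraries were named with Cre and the WT libraries with GFP. The labels give the cells as a cell line. How Kdm6a was removed, the number of animals or clones behind the cells, and their sex and passage are not given in the sources used here. There was 1 library of each mark and genotype, which leaves every difference without a check between replicates. No p-value is given for that reason, and intervals cover counting error only.

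H3K27me3 is placed by the EZH2 or EZH1 subunit of Polycomb repressive complex PRC2 and marks silenced genes, many of them developmental regulators. H3K27ac is placed by the acetyltransferases CBP and p300 and marks active promoters and enhancers. Both sit on the same lysine of histone H3, so a given histone tail cannot carry both, and KDM6A (UTX) is a demethylase that removes H3K27me3. Overlapping regions in a bulk sample can come from the other tail of a nucleosome, from neighbouring nucleosomes, from the other allele or from different cells, and region lists do not tell these apart. Fibroblast marker genes and the genes at the regions were not examined, since no annotation of the mouse build was used here.

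The libraries differed in depth. H3K27me3 gave 95640 autosomal regions from 13585142 fragments in KO and 171188 from 23955669 in WT. H3K27ac gave 191037 regions from 35585297 fragments in KO and 166110 from 36573460 in WT. Regions were called against the mean of the same library, with no input and no local background, so a gain of DNA copy number or a collapsed repeat can give regions of either mark. Folds and −log10 q-values are the authors' peak-caller values and describe and rank regions within their own list. Where folds of several lists are given for a region, they are each list's own values and no change is read from them.

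The doubly marked regions were longer and somewhat more enriched for H3K27me3 than the rest of their list, with a long upper tail. Their median length was 431 bp (quartiles 254 to 912), against 334 bp (227 to 573) for the 165120 H3K27me3 regions without H3K27ac. Their median fold enrichment over the library mean was 4.00 (quartiles 3.20 to 5.21), against 3.60 (3.20 to 4.41). The median pileup was 9 in doubly marked regions and 8 in the others, and the lowest fold in the list was 2.80. The medians thus lay near the lowest values listed and differed little. At the 95th percentile the fold was 10.4 in doubly marked regions and 6.01 in the others, and the length 3007 bp and 1505 bp. The doubly marked share was 8.60% (8.18 to 9.03) in the strongest decile of H3K27me3 regions and 2.61% to 3.70% in each of the other 9 deciles. Regions were ranked by −log10 q, then fold, then pileup, with ties ordered by length. It also moved with length, from 2.75% of regions under 250 bp to 18.4% (15.6 to 21.5) of the 706 regions of 5000 bp or more. A longer region has more bases on which to meet another, and the parts of length and strength in these shares were not separated.

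As a set, the H3K27ac partners were not drawn from the strong end of their list, although its very top held many of them (31 of the top 100). Their median length was 305 bp, against 315 bp for H3K27ac regions without H3K27me3, and their median fold was 3.57 in both sets. The 75th percentile was 4.22-fold in partners and 4.87-fold in the others. Of the strongest decile of H3K27ac regions, 2.20% (1.98 to 2.43) lay on H3K27me3, and the share was 3.07% in decile 2 and 3.87% to 4.85% in deciles 3 to 10. By length, the share of H3K27ac regions on H3K27me3 had no single direction. It was 3.95% to 4.09% in the classes under 2000 bp, 2.64% (2.35 to 2.96) from 2000 bp up to 5000 bp and 4.89% (4.04 to 5.86) at 5000 bp or more. In 449 doubly marked regions (7.40%) the best partner belonged to the strongest H3K27ac decile, and 1472 (24.3%) belonged to the strongest H3K27me3 decile. Both held for 193 regions (3.18%). Across the 6068 regions the folds of the marks were nearly unrelated (Spearman rho 0.12), as were the lengths (rho 0.05). These describe regions of 1 pair of libraries, and regions are not independent.

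The KO lists, which did not choose the regions, gave the same placement for H3K27me3 and a flatter course for H3K27ac. In KO, 3583 of 95640 H3K27me3 regions (3.75%, 3.63 to 3.87) lay on a KO H3K27ac region, against the 3.54% in WT. The share was 9.24% (8.67 to 9.84) in the strongest KO H3K27me3 decile and 2.70% to 4.44% in the others. Doubly marked KO regions had a median length of 413 bp, against 322 bp for the other KO H3K27me3 regions. Of KO H3K27ac regions, 1.99% lay on H3K27me3, with 1.91% (1.72 to 2.11) in the strongest decile and 1.68% to 2.37% in the others. The low share of the strongest WT H3K27ac decile had no counterpart in KO, where the H3K27me3 list was shorter.

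**Figure D1:**
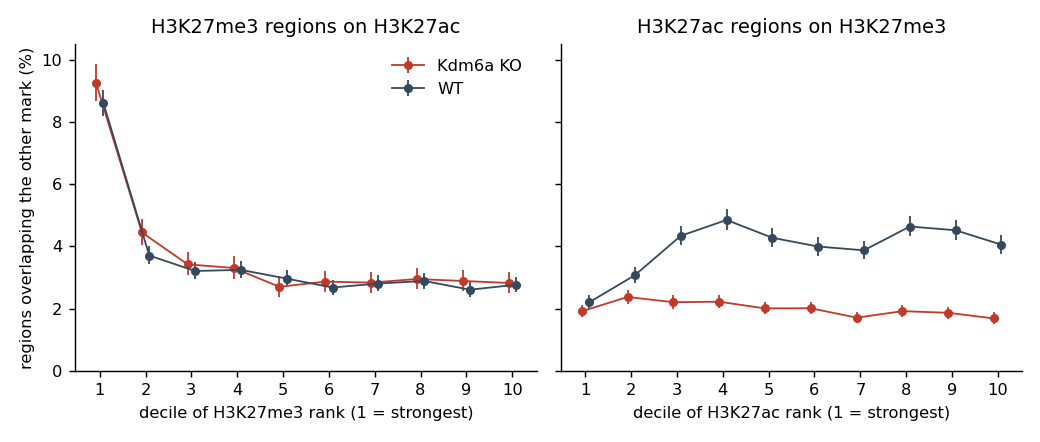
Share of regions that overlap the other mark (vertical axis, %) by decile of rank within the list (horizontal axis, 1 is the strongest), for H3K27me3 regions on the left and H3K27ac regions on the right. Red is Kdm6a KO and dark blue WT, 1 library each, with exact 95% intervals. The strongest H3K27me3 decile stands above the others in both genotypes, at 9.24% in KO and 8.60% in WT, while the strongest H3K27ac decile of WT is the lowest of its list at 2.20%.

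Most overlaps were short and simple. A doubly marked region met exactly 1 H3K27ac region in 5610 cases (92.5%), and 97.0% of the partners met 1 H3K27me3 region. The bases of a region under both marks, summed over its partners, had a median of 206 bp (quartiles 143 to 360) and came to 2.58 Mb in all. They covered a median of 55.0% of the H3K27me3 region. The H3K27me3 region lay wholly inside H3K27ac in 1244 cases (20.5%), held its best partner wholly in 2036 (33.6%) and met it at an edge in 2788 (45.9%). The H3K27me3 summit fell inside an H3K27ac region in 3783 regions (62.3%), and the summits of the marks were a median of 170 bp apart (quartiles 68 to 397). The summits thus lay close together in many regions, while in 816 (13.4%) neither summit fell inside the region of the other mark.

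The 1 bp rule divided regions of similar WT length and fold at its edge. The 70 doubly marked regions with 1 to 10 bp of overlap had a median length of 285 bp and a median fold of 3.20, and the 61 excluded regions with a gap of 0 to 10 bp to H3K27ac had 256 bp and 3.20. In KO, H3K27me3 was listed at 21.4% of these 70 and 29.5% of these 61, and H3K27ac at 31.4% and 39.3%. Both shares were thus the lower in the doubly marked regions of this edge, on few regions. An example inside is chr11:100169847-100170145, which shares 1 bp with H3K27ac, and one outside is chr11:106654953-106655129, which abuts an H3K27ac region with a gap of 0 bp. The H3K27me3 regions without H3K27ac were a median of 24.1 kb from the nearest H3K27ac region. Within 1 kb of one were 5791 of them (3.51%), a number close to that of the doubly marked regions.

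The highest-ranked H3K27me3 regions were almost all doubly marked. In KO, 94 of the top 100 and 300 of the top 1000 H3K27me3 regions lay on KO H3K27ac, and in WT 98 of the top 100 and 395 of the top 1000 lay on WT H3K27ac. Of the H3K27ac lists, 35 of the top 100 in KO and 31 of the top 100 in WT lay on H3K27me3. Of the top 1000 these were 67 in KO and 71 in WT. The region at chr2:98666231-98667339 (1109 bp) was first in all 4 lists, with an H3K27me3 fold of 10666 in KO and 9718 in WT and an H3K27ac fold of 9507 in KO and 9043 in WT. At chr14:19415697-19419710 the H3K27me3 fold was 5164 in KO and 5038 in WT, and the H3K27ac fold 5201 in KO and 4725 in WT. At chr9:2999991-3038295 (38305 bp) the H3K27me3 fold was 3386 in KO and 3427 in WT, with H3K27ac at 3674 in KO and 3492 in WT. At chr2:98662226-98664091 the H3K27me3 fold was 1802 in KO and 1602 in WT, and at chr12:3109862-3110121 it was 1477 in KO and 1395 in WT. The first 4 of these regions held ranks 1 to 4 in every list, and the chr12 region was 6 in the KO H3K27me3 list and 5 in the other lists. Coordinates are those of the files, whose mouse build is not named in the sources used here, and repeat annotation was not examined. No H3K27me3 region without H3K27ac exceeded 27.2-fold, while 44 doubly marked regions on 17 chromosomes did, of which 42 held both marks in KO. Without regions over 100-fold in any list, 11 doubly marked H3K27me3 regions among them, an alternative added after the data had been seen, the share of doubly marked regions was 3.52% and the share that held both marks in KO 23.7%.

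Doubly marked regions lay next to each other far more often than their share of the list. After a doubly marked region, the next H3K27me3 region along the chromosome was doubly marked in 29.8% of cases, against 2.58% after a region without H3K27ac. Among neighbours within 1 kb these shares were 38.7% and 1.68%. The 6068 regions formed 4265 uninterrupted runs, of which 3333 held 1 region, and 87 runs of 5 or more held 735 of the regions (12.1%). The longest run was 38 regions over 58.8 kb at chr11:3118881-3177704. It was followed by 32 over 81.0 kb at chr8:20569022-20650035 and 31 over 122 kb at chr6:47651706-47773221. The 1 Mb bin with the most, chr8:20000001-21000000, held 198 doubly marked regions of 258, or 76.7%. In KO that bin held 315 H3K27me3 and 414 H3K27ac regions, against 258 and 446 in WT.

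Doubly marked regions also stood somewhat apart from the other H3K27me3 regions. The nearest H3K27me3 region of any kind was a median of 976 bp away, against 562 bp for regions without H3K27ac. When H3K27me3 regions were grouped across gaps of up to 3 kb, 7.32% of the 26491 that stood alone were doubly marked. The share was 4.03% (3.84 to 4.21) at the ends of a group and 2.35% (2.26 to 2.45) between other regions. Regions standing alone were 31.9% of the doubly marked set and 15.5% of all H3K27me3 regions.

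The chromosomes differed widely in the number of doubly marked regions. Chromosome 8 held 1551, or 12.0 per Mb and 8.12% of its H3K27me3 regions, and chromosome 11 held 959, or 7.86 per Mb and 6.40%. The fewest per Mb were on chromosome 12, with 55 regions, 0.458 per Mb and 1.41%. Chromosomes 3, 5, 6, 8, 11 and 15 carried 74.7% of the doubly marked regions on 33.2% of the sequence. They also carried many regions of every list, namely 52.8% of H3K27me3 in KO and 50.6% in WT, and 46.3% of H3K27ac in KO and 48.4% in WT. With these 6 chromosomes left out, an alternative chosen after the data had been seen, the doubly marked share was 1.82% in place of 3.54%. Chromosome copy number was not measured, and its part in these counts was not tested.

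The state of the doubly marked regions in KO cells was spread over all 4 possible outcomes. Both marks were listed in KO at 1450 of the 6068 regions (23.9%, 22.8 to 25.0), against 1.51% of all 171188 WT H3K27me3 regions. Only H3K27ac was listed at 1733 (28.6%, 27.4 to 29.7), against 2.29% of all. Only H3K27me3 was listed at 1198 (19.7%, 18.7 to 20.8), against 30.3% of all, and neither at 1687 (27.8%, 26.7 to 28.9), against 65.9% of all. A KO H3K27ac region was present at 3183 doubly marked regions (52.5%, 51.2 to 53.7), against 2.00% of the regions without H3K27ac in WT and 3.79% of all, so these shares follow the WT state to a large degree. Most doubly marked regions of WT were thus not listed with both marks in KO, and where exactly 1 mark was listed it was more often H3K27ac. This order turned when the WT and KO lists of a mark were given the same length, with 26.5% only H3K27me3 and 20.5% only H3K27ac among 3982 regions. The shares also moved with strength, since 46.2% of the 660 regions left at −log10 q of at least 5 held both marks.

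**Figure D2:**
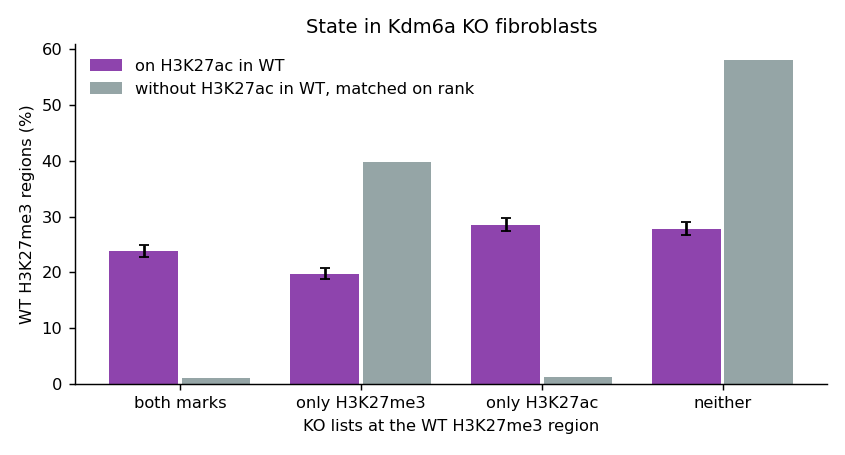
Share of WT H3K27me3 regions (vertical axis, %) in each of 4 KO states, by presence of a KO region of each mark. Purple bars are the 6068 regions on H3K27ac in WT with exact 95% intervals, and grey bars the regions without H3K27ac weighted to the same deciles of WT H3K27me3 rank. Doubly marked regions spread over all 4 states, with 23.9% both marks, 19.7% only H3K27me3, 28.6% only H3K27ac and 27.8% neither, while most matched regions fall into only H3K27me3 (39.7%) or neither (58.1%). Both sets were chosen by H3K27ac in WT, so the contrast in states with KO H3K27ac follows that choice to a large degree.

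Whether H3K27me3 was kept in KO could be compared with H3K27me3 regions in the same decile of rank that had no H3K27ac. A KO H3K27me3 region was present at 2648 doubly marked regions (43.6%, 42.4 to 44.9), against 40.7% of the 165120 other regions weighted to the same deciles of WT rank. Over all WT H3K27me3 regions the share was 31.8%. The difference of 2.89 percentage points (1.83 to 3.95) is small, and its interval treats regions as independent. It was 4.06 points in the strongest decile (86.0% of doubly marked and 81.9% of other regions) and −1.11 points in decile 9 (12.8% and 13.9%). Across these deciles the share thus differed far more between ranks than with the presence of H3K27ac. Since ties in rank were ordered by length, length has a part in these decile differences. Other regions kept H3K27me3 at 36.7% in decile 4 and 25.3% in decile 5, where the median was 4.00-fold in both. The deciles matched rank only coarsely at the top. In the strongest decile, doubly marked regions had medians of 7.21-fold and 1558 bp, against 6.01-fold and 1284 bp for the others. By length, H3K27me3 was kept at 29.1% of doubly marked and 23.8% of other regions from 250 bp up to 500 bp, and at 54.0% of doubly marked and 48.0% of other regions from 500 bp up to 1000 bp. The shares were closer under 250 bp, at 13.1% of doubly marked and 12.7% of other regions, and from 1000 bp up to 2000 bp, at 79.2% and 78.8%. They were also close from 2000 bp up to 5000 bp, at 97.5% and 97.3%, and at 5000 bp or more, at 99.2% and 100%. The difference stayed above 0 in 13 alternatives, from 1.76 points with 20 classes of rank to 6.87 points when 50% of the region had to be covered.

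The difference was not even along the genome. Within chromosomes it was above 0 on 13 of 19, with a median of 1.46 points and a range of −6.48 on chromosome 16 to 21.4 on chromosome 12. On chromosome 8, which held the most regions, it was 7.37 points (5.26 to 9.49), and on chromosome 11 it was 0.893 (−1.73 to 3.52). By density, it was 14.7 points (11.6 to 17.8) in the decile of H3K27me3 regions from the sparsest 1 Mb bins, with 1 to 46 regions each. There 43.8% of 992 doubly marked regions kept H3K27me3, against 29.1% of matched regions. In the decile from the densest bins it was 1.88 points (−2.54 to 6.29). Between these it had no steady course with density, and ranged from −3.03 points (−6.40 to 0.344) in decile 6 to 8.63 (4.79 to 12.5) in decile 4. In the sparsest bins, doubly marked regions had a median length of 462 bp and the others 246 bp, and the part of length in that value was not tested. Without regions over 100-fold the sparsest value was 14.5 points. Without the 6 chromosomes named above the difference over the remaining regions was 6.68 points. Without matching on rank, H3K27me3 was kept at 30.7% of doubly marked and 7.88% of other regions standing alone. The shares were 36.0% and 19.8% at the ends of a group, and 59.7% and 42.1% between other regions. Doubly marked regions were the longer in each place, with medians of 339 bp and 238 bp where alone.

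**Figure D3:**
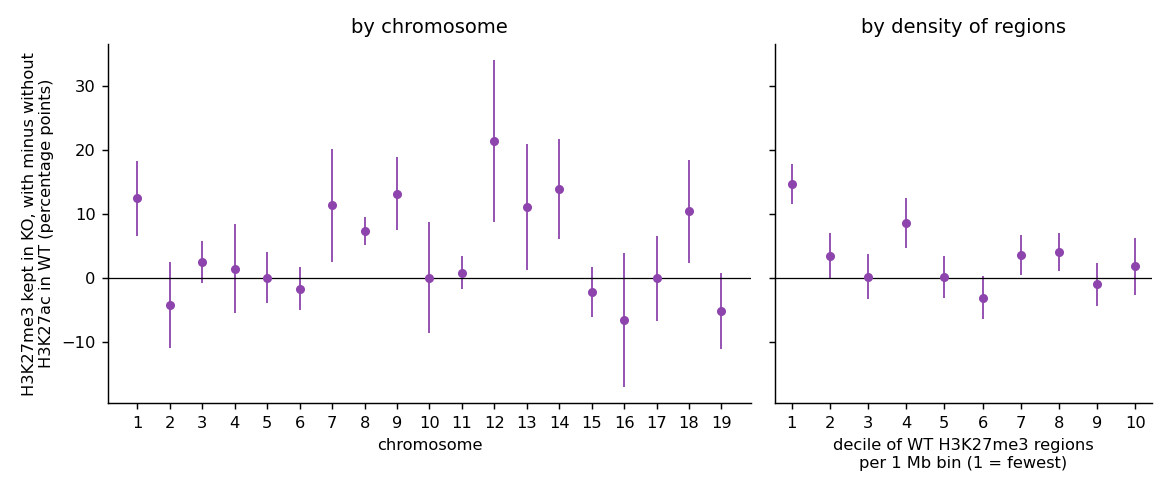
Difference in the share of WT H3K27me3 regions with a KO H3K27me3 region, doubly marked minus rank-matched regions without H3K27ac (vertical axis, percentage points), by chromosome on the left and by decile of H3K27me3 regions per 1 Mb bin on the right. Points are estimates with 95% intervals that treat regions as independent. The values run from −6.48 on chromosome 16 to 21.4 on chromosome 12, and the sparsest bins give 14.7 points.

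For H3K27ac the pooled comparison with matched regions gave no clear direction, and the direction differed between deciles of rank. A KO H3K27ac region was present at 3429 of the 6609 partners (51.9%, 50.7 to 53.1), against 52.7% of H3K27ac regions without H3K27me3 weighted to the same deciles of WT H3K27ac rank. Over all WT H3K27ac regions the share was 55.8%. The difference was −0.804 points (−1.85 to 0.245), and its sign turned in 5 of 12 alternatives, with 7.69 points at −log10 q of at least 5 and 2.20 without the 6 chromosomes. Within chromosomes it was above 0 on 12 of 19, with a median of 2.79 points and a range of −9.90 on chromosome 19 to 13.3 on chromosome 14, so the median over chromosomes had the opposite sign to the pooled value. By decile, partners were kept more often than others in deciles 2 to 5, as in decile 3 (83.2% against 75.7%). They were kept less often in deciles 6 to 10, as in decile 10 (18.7% against 25.1%), so the pooled value joins opposite differences. In the strongest decile 98.4% of partners and 99.4% of the others were kept.

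**Figure D4:**
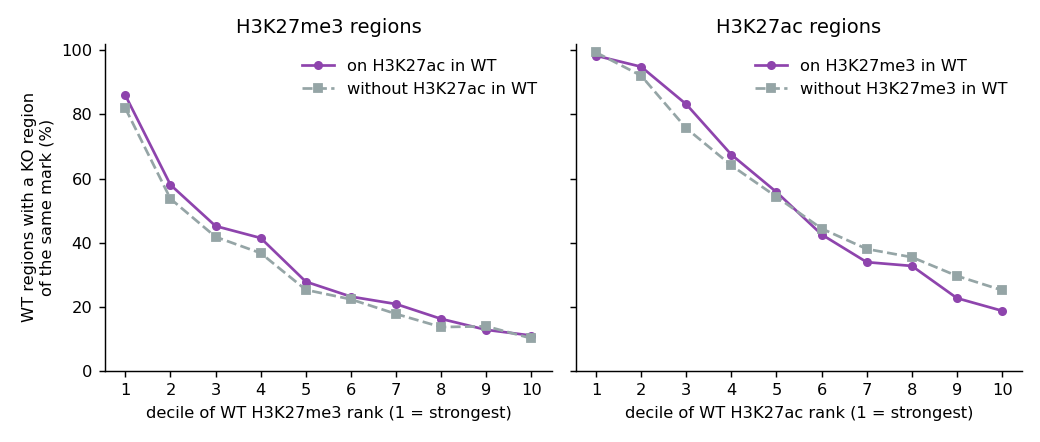
Share of WT regions with a KO region of the same mark (vertical axis, %) by decile of WT rank (horizontal axis, 1 is the strongest), for H3K27me3 on the left and H3K27ac on the right. Purple circles are regions that overlap the other mark in WT and grey squares regions that do not. The H3K27me3 curves lie close together, at 86.0% and 81.9% in the strongest decile. The H3K27ac curves cross, at 98.4% and 99.4% in the strongest decile, 83.2% and 75.7% in decile 3, and 18.7% and 25.1% in decile 10.

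Among the doubly marked regions, the state in KO followed the WT rank of each mark, and this course was not particular to them. Of the 480 regions in the top 20% of both lists, 380 held both marks in KO (79.2%, 75.3 to 82.7) and 4 held neither. Of the 394 in the top 20% for H3K27me3 with a partner in the lowest 20% for H3K27ac, 242 (61.4%) held only H3K27me3. Of the 159 with the reverse, 118 (74.2%) held only H3K27ac, and of the 183 in the lowest 20% of both, 119 (65.0%) held neither. Outside the set, H3K27me3 regions without H3K27ac kept H3K27me3 at 81.9% in the strongest decile and 10.1% in the weakest. H3K27ac regions without H3K27me3 kept H3K27ac at 99.4% and 25.1%. Length went the same way, with both marks in KO at 5.03% of the doubly marked regions under 250 bp and 65.3% of those from 2000 bp up to 5000 bp. H3K27me3 regions without H3K27ac kept H3K27me3 at 12.7% and 97.3% in these length classes. Regions with both marks in KO had a WT median of 1042 bp and 6.01-fold for H3K27me3, those with only H3K27me3 751 bp and 4.41-fold, those with only H3K27ac 307 bp and 3.60-fold, and those with neither 297 bp and 3.60-fold.

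**Figure D5:**
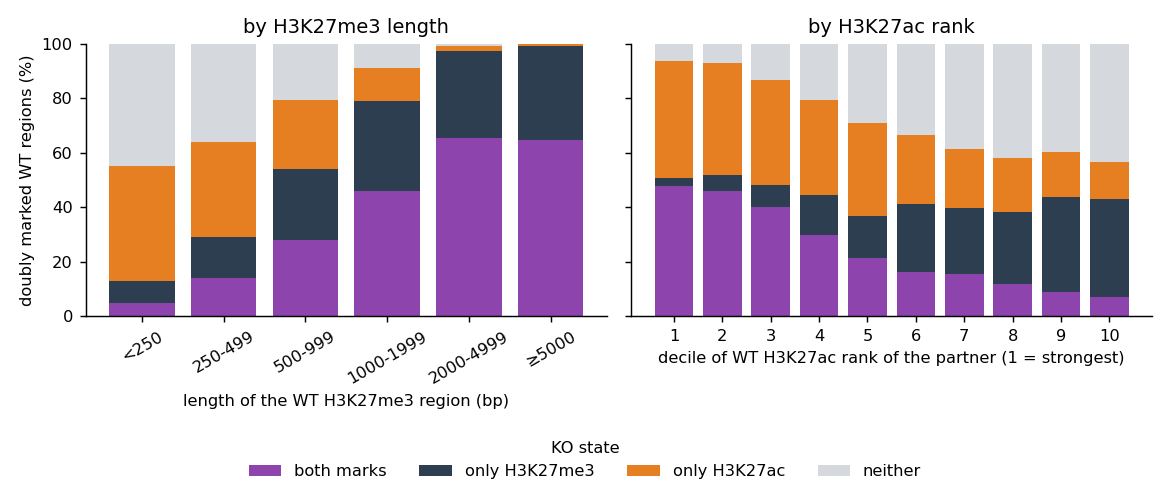
KO state of the 6068 doubly marked WT regions (stacked bars, %) by length of the WT H3K27me3 region on the left and by decile of WT rank of the best H3K27ac partner on the right (1 is the strongest). Purple is both marks, dark blue only H3K27me3, orange only H3K27ac and grey neither. Both marks take 5.03% of regions under 250 bp and 65.3% of those from 2000 bp up to 5000 bp, and 47.9% of regions in the strongest and 7.01% in the weakest H3K27ac decile.

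Where H3K27ac was kept, H3K27me3 was kept somewhat more often before weighting for H3K27me3 rank and somewhat less often after it. H3K27me3 was listed in KO at 45.6% of the 3183 doubly marked regions with H3K27ac in KO and at 41.5% of the 2885 without. With weights for decile of WT H3K27me3 rank these shares were 45.6% and 49.1%, a difference of −3.55 points (−5.64 to −1.47). The share with both marks, 23.9%, compares with 22.9% for the product of the overall shares and 24.9% for the product within 100 classes of both WT ranks. These products are descriptions over the same regions, and the sign of the difference depended on the weighting.

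Individual regions show the states. The best-ranked region with only H3K27ac in KO was chr2:3964482-3964723, with 118-fold H3K27me3 and 37.0-fold H3K27ac in WT, and in KO 33.1-fold H3K27ac and no H3K27me3 region. At chr1:186730680-186733021, a 2342 bp region wholly inside H3K27ac in a bin of 6 H3K27me3 regions, H3K27me3 was 9.61-fold in WT and not listed in KO, while an H3K27ac region was listed in both, at 27.4-fold in KO and 25.3-fold in WT. The best-ranked region with only H3K27me3 in KO was chr11:96006831-96007907, listed at 5.28-fold H3K27me3 in the KO list and at 6.81-fold in the WT list. It met the end of a 5308 bp, 24.0-fold H3K27ac region over 436 bp in WT. The best-ranked with neither was chr7:98060019-98060210, 192 bp long, with 30.4-fold H3K27me3 and 23.7-fold H3K27ac in WT. The most bases under both marks, 86177 bp summed over separate H3K27ac regions, lay in the 87322 bp H3K27me3 region at chr8:123537392-123624713, where the best-ranked H3K27ac region was 76234 bp long in WT. Both marks were listed there in KO, with an H3K27me3 region of 87109 bp and a best-ranked H3K27ac region of 16217 bp. Summed over separate regions, KO H3K27ac covered 85879 bp of the WT H3K27me3 region, close to the 86177 bp in WT.

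The doubly marked regions of KO overlapped those of WT in part. Of the 3583 in KO, 1617 (45.1%, 43.5 to 46.8) overlapped a doubly marked region of WT. The same held for 2.13% of the KO H3K27me3 regions without KO H3K27ac, and for 3578 of all 95640 KO H3K27me3 regions. By the WT regions directly under them, 1522 (42.5%) lay on both marks, 1094 (30.5%) only on H3K27me3, 446 (12.4%) only on H3K27ac and 521 (14.5%) on neither. For comparison, of the 92057 KO H3K27me3 regions without KO H3K27ac, 1.31% lay on both WT marks and 64.4% only on WT H3K27me3. Another 0.764% lay only on WT H3K27ac and 33.5% on neither. KO H3K27me3 regions on a doubly marked WT region ranked higher in their list than those on other WT H3K27me3 regions, with median folds of 4.75 and 4.23 and median lengths of 519 and 385 bp. Regions of KO with no WT H3K27me3 region were weaker, at 3.70-fold and 252 bp.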

How the data were processed

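The authors fixed cells with formaldehyde, sonicated chromatin, immunoprecipitated with H3K27ac or H3K27me3 antibodies and tagmented DNA on beads, per the labels' protocols. The submitters' processing notes list MACS2 2.1.2, Bowtie2, Trimmomatic, FastQC and MultiQC, and as build GRCh38, which is human. The MEF files hold mouse chromosomes. No label or header names a mouse build. Per the file headers, the authors called regions per library with MACS 2.1.1.20160309 on paired-end fragments, with no control, no local background and a q-value of 0.05. The deposited columns used were the pileup signal, the fold enrichment (a ratio), the −log10 p-value and the −log10 q-value, per the file headers.

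Entries with equal coordinates were merged and chromosomes 1 to 19 kept. Rank was by −log10 q, then fold, then pileup, and ties were ordered by length and then position. Deciles of rank therefore also differ in length where many regions were tied. H3K27me3 deciles 4 and 5 both had a median of 4.00-fold, with median lengths of 546 and 296 bp. Overlap was at least 1 bp. Matched shares weight the decile shares of the other regions to the deciles of the doubly marked regions, with nothing drawn at random. The 16 human lists were not used here. Intervals are exact Clopper-Pearson for shares and a normal approximation for differences. Named regions were the best 5 of each KO state by the worse of the ranks of both marks, the 3 with the most bases under both marks, the fullest 1 Mb bin and the edges of the rule, with the report giving a selection of these. The set, the rules and the comparisons were chosen with earlier results of these data known. Alternatives are given in the closing section. Software was pandas 2.3.3 and numpy 2.4.6 under Python 3.11.15, with scipy 1.17.1 for intervals and matplotlib 3.10.9 for plots, and the overlap and weighting functions were tested on simulated data (5 of 5 steps returned the known answer).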

Additional observations from a re-analysis of the deposited data

How the results depend on the processing

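No paired analysis was possible because each group has 1 library, and leaving out a replicate was not possible for the same reason. The share of doubly marked regions was 2.87% at −log10 q of at least 5, 4.16% with equal list lengths, 1.91% with 50% of the region covered, 2.21% with the summit base required to lie in the other mark, 3.67% without dense 1 Mb bins, 10.4% with regions joined across 3 kb, 3.45% with X and 1.82% without chromosomes 3, 5, 6, 8, 11 and 15. The share with both marks in KO was 46.2%, 31.8%, 18.1%, 20.0%, 25.1% and 34.3% under the first 6 of these, 21.1% when only the stretch under both WT marks was compared, and 31.5% without the 6 chromosomes. The share with only H3K27ac in KO was 27.4% at −log10 q of at least 5, 20.5% with equal lengths, 36.1% with 50% covered, 31.8% by summit and 26.4% without the 6 chromosomes. The difference in kept H3K27me3 was 4.94, 6.87, 6.48, 1.76, 4.11 and 6.68 points with −log10 q of at least 5, 50% covered, the summit base, 20 classes of rank, matching on rank and density, and without the 6 chromosomes. In the other 7 alternatives it stayed within its interval, from 1.85 points with equal list lengths to 3.83 with regions joined across 3 kb. With matching on rank and length it was 1.91 points (0.886 to 2.93). The difference in kept H3K27ac was above 0 at −log10 q of at least 5 (7.69), with 50% covered (1.21), by summit (1.05), without dense bins (0.286) and without the 6 chromosomes (2.20), and it was −1.89 with matching on rank and length and −1.98 with matching on rank and density. The cause was not tested. Leaving out the 6 chromosomes or the regions over 100-fold, and matching on rank and chromosome, on rank and density or on length in place of rank, were added after the data had been seen. The shallower H3K27me3 library of KO limits which weak regions could be listed there.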

Other observations

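The X chromosome, outside the chromosomes described above, held 5247 H3K27me3 regions in KO and 20683 in WT, or 30.7 and 121 per Mb, a KO over WT ratio of 0.254. On chromosomes 1 to 19 there were 38.9 per Mb in KO and 69.6 in WT, a ratio of 0.559. Of the WT regions on X, 542 (2.62%, 2.41 to 2.85) overlapped WT H3K27ac. A KO H3K27me3 region was present at 173 of these 542 (31.9%, 28.0 to 36.0), against 2646 of the 20141 WT H3K27me3 regions on X without H3K27ac (13.1%, 12.7 to 13.6). These shares were not matched on rank, and the doubly marked regions were the longer, with a median of 398 bp against 285 bp. Both marks were listed in KO at 108 of the 542 (19.9%), only H3K27ac at 131, only H3K27me3 at 65 and neither at 238. Each value rests on 1 library per group.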
